A study of Rattus norvegicus with 6 samples.

Results

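Transcripts of 10 circadian clock genes were followed in cultured heart muscle cells of newborn rats. They were found by gene name in the deposited table, where each name had a single row, so 10 of the 22250 genes in the table are described. They are Arntl (also called Bmal1) and Clock, which form the activator of the clock, the repressors Per1, Per2, Per3, Cry1 and Cry2, the nuclear receptors Nr1d1 and Nr1d2 (REV-ERBα and REV-ERBβ), and Dbp, a transcription factor of the output arm. The 3Cl-HBA group, 3 libraries, was given this compound at 40 µM for 48 h, and the DMSO group, also 3 libraries, was given the solvent. All cells were wild type, came from the hearts of Sprague-Dawley rats aged 1 day and were kept in medium with 10% fetal bovine serum. The series title names the activation of hydroxycarboxylic acid receptor 1, a lactate receptor, as its subject. Reads of each gene were counted after sequencing of RNA from which ribosomal RNA had been removed. The labels give the length of treatment and no hour of day, and each group has 1 time point, so no rhythm could be measured. Nothing in the labels says that the libraries of a group came from separate cultures or animals, and p-values therefore measure only the spread between these libraries, which may be technical.

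The mammalian clock is a loop of transcription. ARNTL and CLOCK bind together to E-box sequences and switch on the Per, Cry, Nr1d1, Nr1d2 and Dbp genes, PER and CRY proteins then block ARNTL and CLOCK, and the REV-ERB receptors repress Arntl through ROR response elements (ROREs). In a tissue that keeps time, Arntl transcript therefore peaks when Nr1d1 and Dbp are low, and Dbp and the period genes peak in the other part of the day. The loop runs in heart muscle cells as in most tissues, and serum, glucocorticoids and cAMP can set its phase in culture.

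Promoter windows of 9 of the 10 genes were in the RefSeq table of assembly GRCr8, with 11 windows of 250 bases before a start site in all. Cry1 had no entry. The 3 windows shown hold one example each of an RORE core, a D-box and an E-box, through which the arms of the loop act on each other, 5′ to 3′ on the strand of the gene, with matched motifs in capitals. The first lies at chr1:176766078-176766327 (plus strand) and holds an RORE core, 16 to 10 bases before the start of Arntl.
Arntl: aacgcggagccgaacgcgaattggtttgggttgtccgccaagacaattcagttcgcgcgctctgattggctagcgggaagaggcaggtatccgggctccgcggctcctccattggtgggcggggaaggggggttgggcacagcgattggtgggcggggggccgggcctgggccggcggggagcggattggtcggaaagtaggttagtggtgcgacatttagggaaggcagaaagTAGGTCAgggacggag
The second lies at chr9:99496994-99497243 (minus strand) and holds a D-box, the element that DBP binds, 192 to 185 bases before the start of Per2, and a variant E-box (E′-box) at 62 to 57 bases.
Per2: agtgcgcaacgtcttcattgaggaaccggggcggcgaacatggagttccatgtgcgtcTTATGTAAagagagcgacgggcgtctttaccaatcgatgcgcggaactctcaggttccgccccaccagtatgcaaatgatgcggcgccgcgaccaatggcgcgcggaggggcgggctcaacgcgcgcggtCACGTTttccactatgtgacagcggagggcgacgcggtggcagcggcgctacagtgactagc
The third lies at chr10:84229455-84229704 (minus strand), before one of the 2 annotated starts of Nr1d1, and holds an E-box at 191 to 186 bases.
Nr1d1: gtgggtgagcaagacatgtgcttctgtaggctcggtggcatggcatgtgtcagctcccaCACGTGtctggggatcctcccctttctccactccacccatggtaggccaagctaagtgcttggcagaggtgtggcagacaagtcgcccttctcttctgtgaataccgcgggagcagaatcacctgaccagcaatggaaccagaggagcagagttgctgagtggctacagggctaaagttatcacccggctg

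The motifs searched, on both strands, were the E-box CACGTG, the E′-box CACGTT, the D-boxes TTATGTAA and TTACGTAA, the RORE cores TAGGTCA and TGGGTCA, and the cAMP response element TGACGTCA. No matches overlapped in the clock gene windows. Of 33469 RefSeq windows of this length, 5.59% held the E-box, 4.07% the E′-box, 0.932% a D-box, 5.62% an RORE core and 1.59% the cAMP response element. Matches were found for 4 clock genes, Arntl, Per2, Nr1d1 and Cry2. Besides the matches shown, the window before the other start of Nr1d1 held an E′-box at 174 to 169 bases, and that of Cry2 held one at 212 to 207 bases. A match describes letters and not binding, which was not measured.

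Every one of the 10 genes was read well above the filter on low counts, with 270 to 2081 reads per gene and library, and all 10 entered the test. Together they took 489 to 528 of each 1000000 reads. Library totals were 14607337 to 17202191 reads in the 3Cl-HBA group and 13240800 to 14499065 in the DMSO group, so each 3Cl-HBA library was deeper than each DMSO library. Genes that mark heart muscle were abundant in both groups, with Myh6 at 8435 ± 255 reads per 1000000 reads (CPM) in 3Cl-HBA and 8463 ± 353 CPM in DMSO (SD, n = 3 each), and Actc1 at 5065 ± 185 CPM in 3Cl-HBA and 4966 ± 144 CPM in DMSO. The summed level of the 9 markers of this list was 29350 to 30070 CPM in 3Cl-HBA and 29720 to 31490 CPM in DMSO. An unadjusted edgeR p under 0.05 was found for 3 of the 9, where 5.11% of all genes tested had one, and 0 of the 9 passed after adjustment. These 3, named after their values were seen, all had negative log2 fold changes: -0.17 for Ryr2 (p 0.000918, adjusted 0.914), -0.13 for Nppa (p 0.00866, adjusted 0.959) and -0.097 for Myh7 (p 0.0304, adjusted 0.959). Each 3Cl-HBA library was below each DMSO library for Ryr2 and Myh7, as for 5.22% of all genes tested. The part of these markers in the clock gene values was not tested. Fibroblast genes were abundant too: the summed level of 7 markers, led by Col1a1 and Col3a1, was 15210 to 15490 CPM in 3Cl-HBA and 15080 to 15980 CPM in DMSO. The other lists summed to 2446 to 2488 CPM in 3Cl-HBA and 2385 to 2616 CPM in DMSO for smooth muscle and pericytes (6 genes, led by Acta2 and Tagln), and to 535 to 564 CPM in 3Cl-HBA and 516 to 595 CPM in DMSO for endothelium (5 genes, led by Eng and Kdr). Most of the endothelial sum was Eng, with a mean of 412 CPM in 3Cl-HBA and 411 CPM in DMSO. Kdr, the next, had means of 60.65 CPM in 3Cl-HBA and 59.7 CPM in DMSO. Macrophage and leukocyte markers (6 genes, led by Lyz2 and Cd68) summed to 384 to 399 CPM in 3Cl-HBA and 367 to 398 CPM in DMSO, and Schwann and neuronal markers (4 genes, led by Uchl1 and Tubb3) to 95.7 to 113 CPM in 3Cl-HBA and 94.3 to 98.8 CPM in DMSO. Of these 5 further lists, that of macrophages and leukocytes had 1 marker with an unadjusted edgeR p under 0.05 and the others had 0. After adjustment 0 passed. Groups did not overlap, with 3Cl-HBA lower, for 1 marker each of the fibroblast, smooth muscle and pericyte, and macrophage and leukocyte lists. Sox10, which defines Schwann cells, was too low to be tested. Clock transcripts can come from any of these cells, and in such bulk RNA fewer cells of a type and less RNA per cell cannot be told apart.

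All 10 clock genes stood at middling levels that lay close to each other. Levels of different genes are compared per length, as the deposited FPKM (reads per 1000 bases of the gene and 1000000 reads), as means ± SD of the 6 libraries. Per1 was the highest at 18.1 ± 0.76 FPKM and Per3 the lowest at 6.93 ± 0.527 FPKM, a 2.62-fold range across the loop. Between them came Nr1d2 (16.95 ± 0.628 FPKM), Dbp (15.4 ± 1.24), Cry2 (12.8 ± 0.289), Clock (12.5 ± 1.01), Arntl (10.9 ± 0.963), Cry1 (8.79 ± 0.46), Nr1d1 (8.13 ± 0.446) and Per2 (7.92 ± 0.599). Per1 was above 66.45% of the 13903 genes tested on this scale and Per3 above 39.6%.

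**Figure D1:**
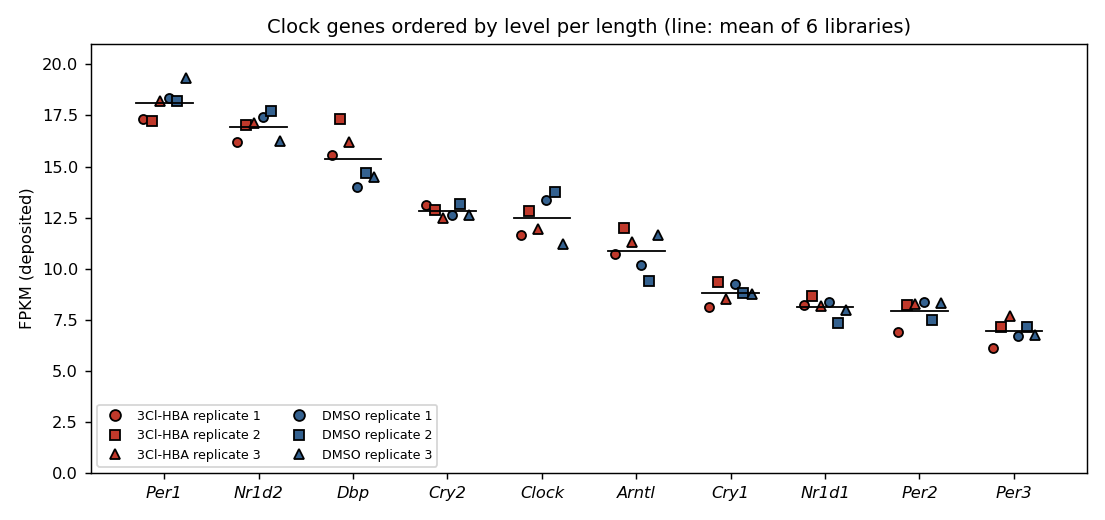
Deposited FPKM (vertical axis) of the 10 clock genes, ordered by their mean over 6 libraries (black line). Red points are 3Cl-HBA libraries, blue points DMSO libraries, and the symbol gives the replicate. Levels fall off gradually, and the ranges of neighbours are apart only between Dbp and Cry2 and, by a narrow gap, between Arntl and Cry1.

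The order of levels held between some neighbours only. Of the 9 pairs of neighbours, 2 had ranges over the 6 libraries that did not overlap, Dbp above Cry2 and Arntl above Cry1. The gaps were narrow. The lowest library of Dbp had 13.99 FPKM and the highest of Cry2 13.17, and the lowest of Arntl had 9.42 FPKM and the highest of Cry1 9.35. Per1, Nr1d2 and Dbp lay above the first gap, Cry2, Clock and Arntl between the gaps, and Cry1, Nr1d1, Per2 and Per3 below the second. Within a library, Per1 was above Nr1d2 in 6 of 6 libraries and Per2 above Per3 in 6 of 6. Nr1d1 was above Per2 in 3 of 6, and Cry2 above Clock in 4 of 6, so these neighbours did not differ beyond their spread. Per3 was the lowest of the 10 in each library and was the only one of them to hold the same place in all 6.

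None of the 10 clock genes differed between treatments beyond the threshold. With edgeR's quasi-likelihood test and Benjamini-Hochberg adjustment over 13903 genes, 0 of the 10 had an adjusted p under 0.05, as had 0 genes of the whole table (0% called). Adjusted p ran from 0.959 to 1 for the clock genes. With an unadjusted p under 0.05 there was 1 clock gene, Dbp, where 5.11% of all genes tested had one (711 genes). With DESeq2 it was 0 clock genes, against 2.24% of 18107 genes (405 genes, 0 past its adjusted threshold). Log2 fold changes (3Cl-HBA minus DMSO) were above 0 for 5 clock genes and below 0 for 5, with a median of -0.013, against -0.00051 for all genes tested. The median size of the change was 0.055 for the clock genes and 0.069 for all genes tested. The 95% interval of the change lay inside 1.5-fold in either direction for all 10, and inside 1.25-fold for 9, the exception being Dbp. The intervals are those of single genes, without correction for the many tested.

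**Figure D2:**
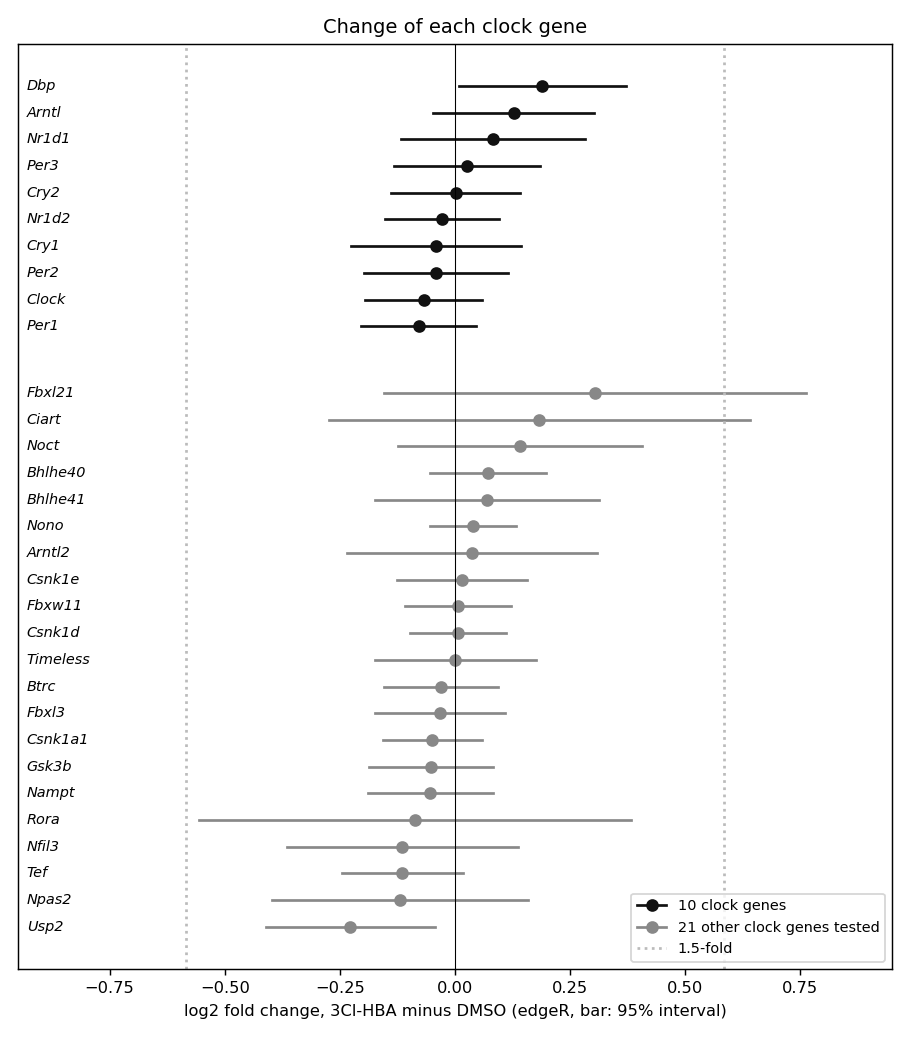
Log2 fold change of each gene, 3Cl-HBA minus DMSO (horizontal axis), with its 95% interval from edgeR (bar), for the 10 clock genes (black) and 21 other clock genes that entered the test (grey). Dotted lines mark 1.5-fold; the 10 black intervals lie between them, and those of Fbxl21 and Ciart cross the upper line.

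Arntl and Clock encode the 2 partners of the activator. Arntl (ENSRNOG00000014448, chromosome 1, 178039063 to 178137465, plus strand) had 31.8, 35.8 and 33.6 CPM in 3Cl-HBA replicates 1 to 3, against 30.1, 27.95 and 34.8 CPM in DMSO replicates 1 to 3. Gene coordinates are those of the deposited table, and its genome build is not given in the sources used here. The groups overlapped because DMSO replicate 3 was above a pair of the 3Cl-HBA libraries. Its difference on the log2 scale was 0.13, with an SE of 0.087 and a 95% interval of -0.048 to 0.30 (adjusted edgeR p 0.984). It ranged from 0.057 without DMSO replicate 2, the lowest library, to 0.21 without DMSO replicate 3.

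Clock (ENSRNOG00000002175, chromosome 14, 34446616 to 34502218, plus strand) had 109, 122 and 113 CPM in 3Cl-HBA and 126, 129 and 106 CPM in DMSO. Its lowest library, DMSO replicate 3, was the DMSO library in which Arntl was highest, and its highest, DMSO replicate 2, was the one in which Arntl was lowest. The log2 fold change, -0.068, had an SE of 0.062 and a 95% interval of -0.19 to 0.058 (adjusted edgeR p 0.984), and it was -0.013 with the trend of each library on gene length removed. It ranged from -0.15 without DMSO replicate 3 (edgeR p 0.00897 before and 0.521 after adjustment) to -0.014 without DMSO replicate 2. Per length, the ratio of Clock to Arntl was 1.09, 1.07 and 1.06 in the 3Cl-HBA libraries and 1.31, 1.46 and 0.959 in the DMSO libraries. Both transcripts were thus near equal in the 3Cl-HBA libraries, and the DMSO libraries lay on both sides of them.

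The period genes encode the scaffold proteins of the repressor complex, and Per1 and Per2 are also induced directly by cAMP and serum in many cells. Per1 (ENSRNOG00000007387, chromosome 10, 55687050 to 55695994, plus strand) had 69.95, 70.2 and 74 CPM in 3Cl-HBA and 74.2, 73.6 and 78.5 CPM in DMSO. The groups overlapped by 1 library, since 3Cl-HBA replicate 3 was above DMSO replicate 2. The log2 fold change, -0.079, had an SE of 0.062 and a 95% interval of -0.20 to 0.046 (adjusted edgeR p 0.984).

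Per2 (ENSRNOG00000020254, chromosome 9, 98555169 to 98597359, minus strand), whose D-box and E′-box are shown above, had 39.8, 47.7 and 48 CPM in 3Cl-HBA and 48.2, 43.2 and 48.3 CPM in DMSO. Per3 (ENSRNOG00000018413, chromosome 5, 168086998 to 168123395, minus strand) had 39.4, 46.4 and 49.8 CPM in 3Cl-HBA and 43.4, 46.1 and 43.9 CPM in DMSO. For both genes 3Cl-HBA replicate 1 was the lowest of the 6 libraries, and the groups overlapped. Log2 fold changes were -0.042 for Per2 (SE 0.078) and 0.026 for Per3 (SE 0.078). Without 3Cl-HBA replicate 1 the value of Per2 was 0.040, and without 3Cl-HBA replicate 3 that of Per3 was -0.050, so neither had a stable sign.

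**Figure D3:**
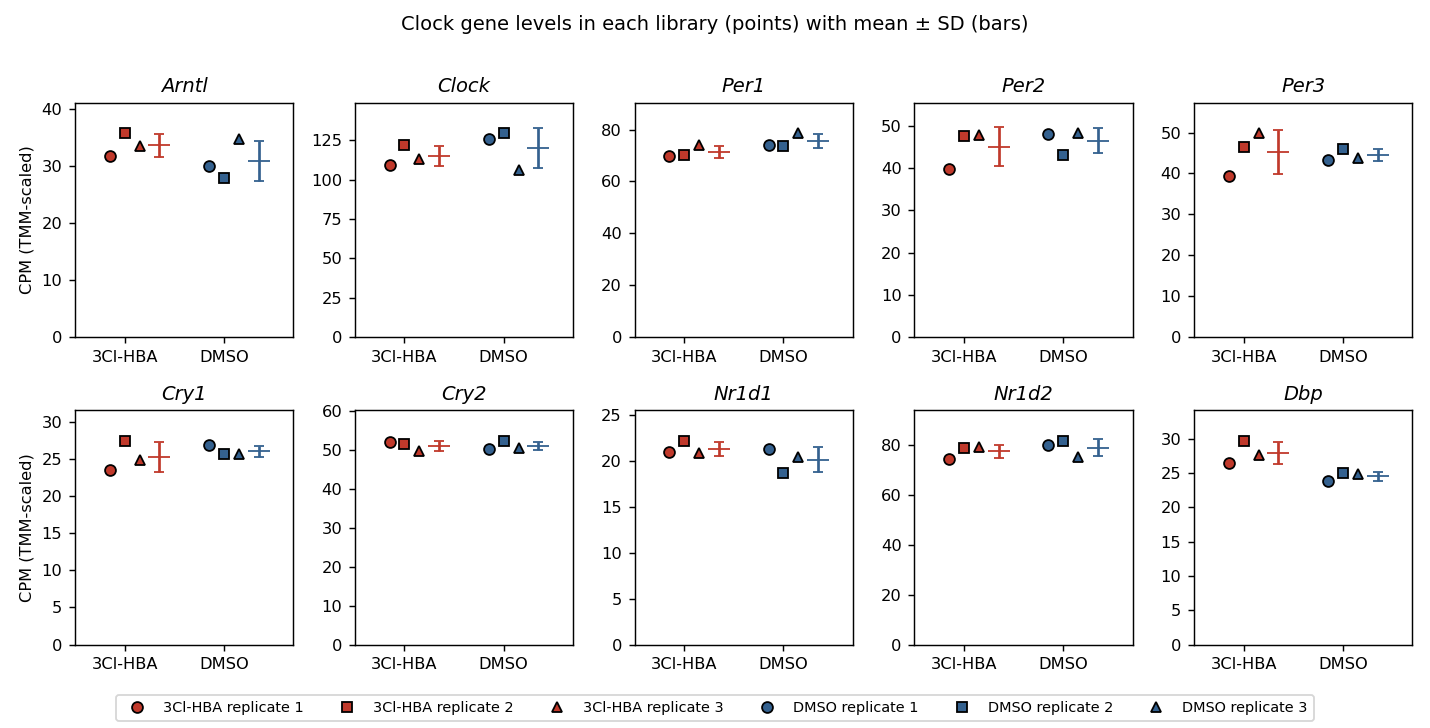
CPM of each clock gene (vertical axes, from 0) in the 3Cl-HBA libraries (red, left) and the DMSO libraries (blue, right), with the mean and SD of each group (bar, n = 3). Dbp is the single gene whose 3Cl-HBA libraries, at 26.4 to 29.65 CPM, all lie above its DMSO libraries, at 23.8 to 24.9 CPM.

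The cryptochromes are the proteins that silence ARNTL and CLOCK directly. Cry1 (ENSRNOG00000006622, chromosome 7, 24534615 to 24634097, plus strand) had 23.6, 27.5 and 24.9 CPM in 3Cl-HBA and 26.9, 25.7 and 25.7 CPM in DMSO. The 3Cl-HBA libraries lay on both sides of the DMSO libraries, and the change of -0.041 on the log2 scale had an SE of 0.092 and a 95% interval of -0.23 to 0.14. Cry2 (ENSRNOG00000007478, chromosome 3, 81314149 to 81344110, minus strand) had 52, 51.4 and 49.6 CPM in 3Cl-HBA and 50.1, 52.2 and 50.4 CPM in DMSO. It was the steadiest of the 10, and the log2 fold change of 0.0016 had an SE of 0.070 and a 95% interval of -0.14 to 0.14, a value so near 0 that scaling by library totals alone gave -0.00045.

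Per length, Cry2 was above Cry1 in each library. The ratio of Cry2 to Cry1 was 1.62, 1.38 and 1.46 in the 3Cl-HBA libraries and 1.37, 1.496 and 1.44 in the DMSO libraries, and the groups overlapped.

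The REV-ERB receptors repress Arntl and genes of lipid metabolism. Nr1d1 (ENSRNOG00000009329, chromosome 10, 86683875 to 86690815, minus strand) had 20.9, 22.2 and 20.8 CPM in 3Cl-HBA and 21.3, 18.7 and 20.5 CPM in DMSO. DMSO replicate 2 was the low one, and the log2 fold change was 0.082 (95% interval -0.12 to 0.28, SE 0.099), or 0.027 without that library. In the deposited coordinates 1059 bases of Nr1d1 overlap Thra, the thyroid hormone receptor gene on the opposite strand. Thra had 4452 reads over the 6 libraries, against 1852 for Nr1d1, and the strand setting of the counting is not given in the sources used here. Reads of the shared stretch can therefore not be assigned to one of them.

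Nr1d2 (ENSRNOG00000046912, chromosome 15, 8730871 to 8757165, plus strand) had 74.3, 79 and 79.1 CPM in 3Cl-HBA and 80.1, 81.7 and 75.1 CPM in DMSO. The groups overlapped, and the log2 fold change was -0.028 (95% interval -0.15 to 0.096, SE 0.062). Per length, the ratio of Nr1d2 to Nr1d1 was 1.96, 1.97 and 2.10 in the 3Cl-HBA libraries and 2.08, 2.42 and 2.03 in the DMSO libraries. Nr1d2 was thus the more abundant REV-ERB transcript in each library.

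Dbp, which carries the clock to target genes through D-boxes, was the clock gene with the largest difference, and it too did not pass. The gene (ENSRNOG00000021027, chromosome 1, 101687855 to 101692846, plus strand) had 26.4, 29.65 and 27.65 CPM in 3Cl-HBA and 23.8, 24.9 and 24.8 CPM in DMSO. Each 3Cl-HBA library was above each DMSO library, the case for 1 of the 10 clock genes and for 5.24% of all genes tested (10.5% with either direction counted). The log2 fold change was 0.19, or 1.14-fold, with an SE of 0.090 and a 95% interval of 0.0078 to 0.37 (edgeR p 0.0413 before and 0.959 after adjustment over all genes). It stayed between 0.14 and 0.23 when each library was left out in turn and was 0.17 with the length trend removed. The unadjusted p was over 0.05 with DESeq2 (0.0762), with the replicate block (0.0509), with the length trend removed (0.0577) and in 5 of the 6 fits without 1 library (0.0253 to 0.177 over the 6). The 3Cl-HBA libraries ranked by Dbp in the same order as by depth, whereas in DMSO the lowest Dbp was in replicate 1, the second in depth. The shallowest 3Cl-HBA library, replicate 1 with 14607337 reads, had 26.4 CPM, and the deepest DMSO library, replicate 2 with 14499065 reads, had 24.9 CPM. The part of depth in the difference was not tested.

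Other genes of the clock gave 0 calls as well. The list held 24 genes that act beside the 10, such as kinases and ubiquitin ligases that set the life of PER and CRY, and partners of Dbp. All 24 were matched, and 21 entered the test. Of these 0 passed over all genes, 11 had a log2 fold change above 0 and 10 below 0, with a median of 0.00012. The 95% interval lay inside 1.5-fold for 19 of the 21. Hlf and Rorb were at 0.191 to 1.06 CPM in each library, too low for the test.

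The most abundant of them were 2 casein kinase 1 genes and a splicing factor that also binds PER. Csnk1a1 had 394 ± 5.49 CPM in 3Cl-HBA and 407 ± 42 CPM in DMSO (log2 fold change -0.049). Nono had 297 ± 6.51 CPM in 3Cl-HBA and 289 ± 5.63 CPM in DMSO (0.039), and Csnk1d had 159 ± 5.48 CPM in 3Cl-HBA and 158 ± 5.56 CPM in DMSO (0.0067). For each of them the groups overlapped.

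Usp2, a deubiquitinase gene that the clock drives and that acts on PER1, was the member of this list with an unadjusted p under 0.05. It had 25.9, 27.55 and 27.3 CPM in 3Cl-HBA and 36.4, 28.7 and 29.4 CPM in DMSO. Each 3Cl-HBA library was below each DMSO library, as in 5.22% of all genes tested, and DMSO replicate 1 stood well above the rest. The log2 fold change was -0.23, with an SE of 0.091 and a 95% interval of -0.41 to -0.044 (edgeR p 0.0164 before and 0.959 after adjustment over all genes), and it was -0.11 without DMSO replicate 1. Lower values with an unadjusted p under 0.05 were found for 2.59% of all genes tested and higher ones, as for Dbp, for 2.52%.

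Tef encodes a transcription factor of the same family as DBP that binds the same D-box, and it is named here after its values were seen. It had 58.3, 60.65 and 63.1 CPM in 3Cl-HBA and 63.85, 66.4 and 67 CPM in DMSO (log2 fold change -0.12, SE 0.065, edgeR unadjusted p 0.0847, adjusted p 0.975). Each 3Cl-HBA library was below each DMSO library, as for 2 of the 21 tested genes of the list of other clock genes. Over all genes tested the share was 5.22%. The margin was small between 3Cl-HBA replicate 3 and DMSO replicate 1. Per length, the ratio of Tef to Dbp was 0.903, 0.836 and 0.934 in the 3Cl-HBA libraries and 1.10, 1.09 and 1.10 in the DMSO libraries. Dbp was thus the more abundant of the pair in each 3Cl-HBA library and Tef in each DMSO library. This ratio was chosen with the values known and was not tested. Hlf, the third gene of the family, was nearly absent, at 0.565 ± 0.147 CPM in 3Cl-HBA and 0.586 ± 0.415 CPM in DMSO.

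A list of 20 genes downstream of the clock in heart or other tissues, together with glucocorticoid-responsive genes, also gave 0 calls. Of its 18 matched genes 17 entered the test, all with intervals inside 1.5-fold, and Kcnip2 was too low. Log2 fold changes ran from -0.16 to 0.10 with a median of -0.034, 7 above 0 and 10 below 0, and 0 had an unadjusted p under 0.05. Lipoprotein lipase Lpl had 480.5 ± 15 CPM in 3Cl-HBA and 463 ± 2.81 CPM in DMSO. The small heat shock protein gene Hspb1 had 258 ± 21.3 CPM in 3Cl-HBA and 257 ± 22.9 CPM in DMSO. For Hspb1 the groups overlapped, whereas each 3Cl-HBA library was above each DMSO library for Lpl (log2 fold change 0.054). Each 3Cl-HBA library was below each DMSO library for 2 genes of the list, Pik3r1 and Zbtb16 (log2 fold changes -0.090 and -0.090), named after their values were seen. Over all genes tested the share was 5.24% for higher and 5.22% for lower.

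The 6 libraries were close to each other in their clock transcripts. The highest library was 1.06 times the lowest for Cry2 and 1.27 times for Arntl, with the other 8 genes in between on the FPKM scale. The SD of log2 CPM over the 6 libraries had a median of 0.098 among the clock genes and 0.113 among all genes tested. For Cry2 it was 0.030, lower than in all but 1.49% of the genes tested, against a median of 0.084 for 4840 genes within 2-fold of its level. For Arntl and Clock it was 0.13 and 0.12, above the medians of 0.097 and 0.068 for genes of like level. Per2, Per3 and Dbp had SDs of 0.12, 0.11 and 0.12, also above the medians of 0.087, 0.088 and 0.104 for genes of like level. The genes that varied most thus belonged to both arms and to the output. For Per1, Cry1, Nr1d1 and Nr1d2 the SD was below that of genes of like level, as for Cry2.

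**Figure D4:**
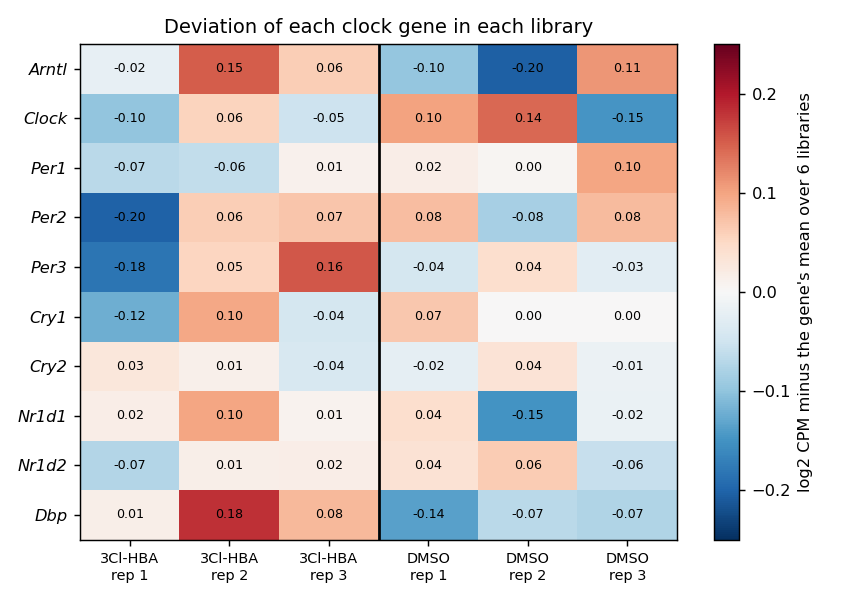
Log2 CPM of each clock gene in each library minus the mean of that gene over the 6 libraries (colour and printed value), with 3Cl-HBA libraries left of the line and DMSO libraries right of it. In 3Cl-HBA replicate 1, Per2, Per3 and Cry1 are low together at -0.20, -0.18 and -0.12, and in the DMSO libraries Arntl and Clock deviate in opposite directions.

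Single libraries deviated by small amounts and in their own ways. In 3Cl-HBA replicate 1, Per2 and Per3 lay 0.20 and 0.18 below their means on the log2 scale, and 3 of the 10 genes were above their own mean. In 3Cl-HBA replicate 2, 9 of the 10 were above it, led by Dbp at 0.18. In DMSO replicate 2, Arntl lay at -0.20 and Nr1d1 at -0.15. The largest deviation of any clock gene in any library was thus about 0.20.

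To describe the balance of the arms, an index was taken as the mean log2 CPM of Arntl and Clock minus that of the other 8 genes. CPM is not per length, so the height of the index also reflects gene length (Clock 9419 bases, Dbp 1702 bases). It is therefore read only between libraries, not as an excess of activator transcripts. The index was 0.59, 0.62 and 0.55 in 3Cl-HBA replicates 1 to 3 and 0.57, 0.56 and 0.56 in DMSO replicates 1 to 3. The groups overlapped, with means of 0.59 ± 0.037 in 3Cl-HBA and 0.56 ± 0.0073 in DMSO (SD, n = 3 each) and a difference of 0.021. This difference was 0.0033 without 3Cl-HBA replicate 2, 0.040 without 3Cl-HBA replicate 3, and -0.0061 with only Arntl against Nr1d1 and Dbp. The index covered 0.074 over the 6 libraries, but it averages Arntl and Clock, which deviated in opposite directions in the DMSO libraries (-0.20 and 0.14 in DMSO replicate 2, 0.11 and -0.15 in DMSO replicate 3). The log2 difference of Arntl and Clock covered 0.60. Arntl, at 2973 bases, is much shorter than Clock, and the part of gene length in these deviations was not tested. The index is a description over several genes and was not tested. Its genes, like those of the tests and relations given here, were chosen with earlier results known. The log2 difference of Arntl and Nr1d1 covered 0.27 over the 6 libraries and that of Arntl and Dbp 0.32. With 1 time point and no measured amplitude in these cells, no phase can be read from these ranges, and phase was not tested.

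**Figure D5:**
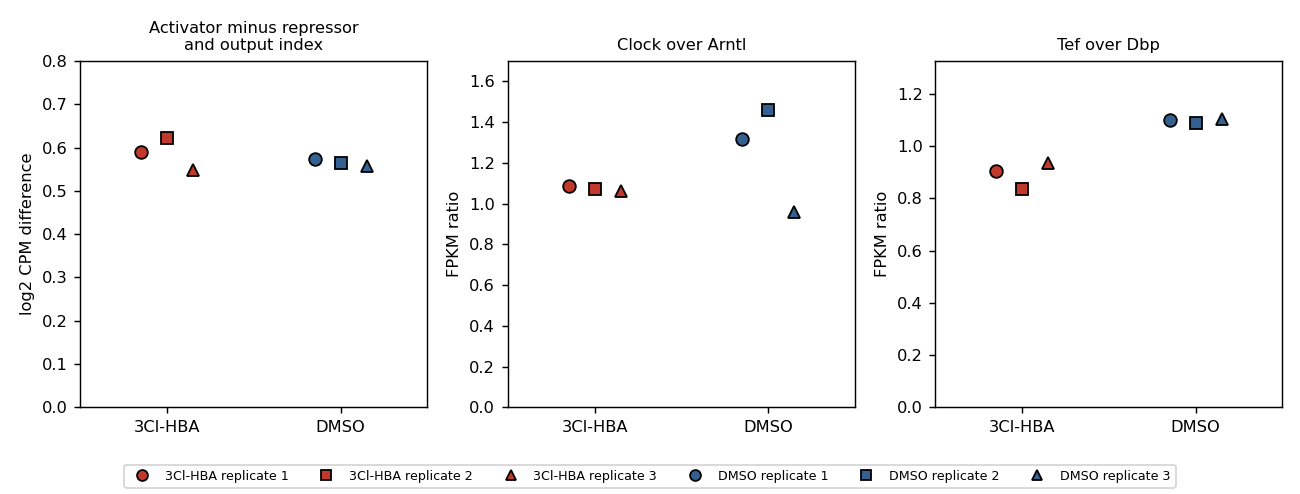
The index of activator minus repressor and output genes in log2 CPM (left), and the FPKM ratios of Clock to Arntl (middle) and of Tef to Dbp (right), for each 3Cl-HBA library (red) and DMSO library (blue); axes start at 0. The index, which is not per length, lies between 0.55 and 0.62 in all 6 libraries. The ratio of Tef to Dbp is below 1 in the 3Cl-HBA libraries and above 1 in the DMSO libraries.

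None of 3 relations between genes of opposite or like phase passed a test across all 6 libraries. Across the 6 libraries, Arntl and Nr1d1 had a Pearson r of 0.711 (exact two-sided permutation p 0.108, adjusted p 0.252 over 3 relations) and a Spearman rho of 0.429 (exact permutation p 0.419, adjusted 0.419). Without the 2 libraries farthest from the median of Arntl, 3Cl-HBA replicate 2 and DMSO replicate 2, r was -0.965, so the positive value rests on those libraries. The exact permutation p of this r was 0.0417, the smallest that 4 libraries allow. It is unadjusted, and the libraries were left out by their Arntl values, so no relation is read from it. Arntl and Dbp had an r of 0.645 (exact permutation p 0.168, adjusted 0.252) and a rho of 0.543 (exact permutation p 0.297, adjusted 0.419). Without the same libraries r was 0.423 (exact permutation p 0.5). Dbp and Per3 had an r of 0.375 (exact permutation p 0.454, adjusted 0.454) and a rho of 0.60 (exact permutation p 0.242, adjusted 0.419). Without 3Cl-HBA replicate 2 and DMSO replicate 1 r was 0.288 (exact permutation p 0.708). Each treatment has too few libraries for an r of its own. With values taken as deviations from the mean of their treatment, r was 0.599 for Arntl and Nr1d1 (permutation p 0.204). It was 0.457 for Arntl and Dbp (permutation p 0.357) and 0.60 for Dbp and Per3 (permutation p 0.183). The p-values of these deviations are approximate, since the permutations ran across both treatments.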

How the data were processed

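RNA-seq of neonatal rat cardiomyocytes was read from a table of the whole series. It holds whole-number read counts per gene and library, not normalised, as deposited. It also holds FPKM, computed by the authors per the file headers, which equal count over gene length and library total within a relative gap of 8.2e-08, and gene length in bases. The labels name DESeq2. For the aligner, counting program, strand setting, build and annotation, nothing is given in the sources used here. Columns were tied to treatments by the labels' treatment protocol, and to replicates by their numbers.

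Differences were tested with edgeR 4.0.16 in R 4.3.3 (TMM, filterByExpr with minimum count 10, robust glmQLFit, glmQLFTest), keeping 13903 genes. SE is the log2 fold change over the square root of F. CPM use TMM-scaled totals; log2 CPM use a prior count of 2. DESeq2 1.42.0 and limma-voom 3.58.1 were alternatives. Relations used exact permutation in Python 3.11.15. The procedure was tested on simulated counts with planted changes of 1.5-fold and 2-fold. Changes as small as those of the clock genes were not simulated. Library pairs differed by more than sampling noise (chi-square per degree of freedom 2.78 to 5.14).

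The genes and lists were chosen with earlier results of these data known. The 10 genes are always named; of each further list, the 3 most abundant tested genes and those with an unadjusted p under 0.05; of cell type markers, the 2 most abundant. Tcap and Sirt1 of the downstream list, and Col1a2 and Pecam1 of the markers, are not analysed here. A few genes of the lists are not reported individually.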

Additional observations from a re-analysis of the deposited data

How the results depend on the processing

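No clock gene was called under any of 12 alternatives per gene (lowest adjusted p 0.521, Clock without DMSO replicate 3), and 5 of the 10 kept the sign of their log2 fold change in all of them: Arntl, Clock, Per1, Nr1d1 and Dbp. With single libraries left out, values ran from -0.095 to 0.040 for Per2, -0.050 to 0.11 for Per3, -0.11 to 0.0067 for Cry1, -0.012 to 0.019 for Cry2 and -0.065 to 0.00087 for Nr1d2, and likewise from -0.12 to 0.027 for Csnk1a1, -0.022 to 0.024 for Csnk1d and -0.059 to 0.072 for Hspb1. Scaling by library totals alone gave -0.00045 for Cry2, and removal of the length trend gave -0.0076 for Hspb1. Over the whole table the count of called genes, 0 with edgeR, was 1 with limma-voom, 2 with no filter on low counts, and 0 to 8 with single libraries left out (0, 2 and 3 without 3Cl-HBA replicates 1 to 3, and 0, 1 and 8 without DMSO replicates 1 to 3); none of these was a clock gene or on the lists of other clock and output genes, and the cause was not tested. With the replicate block the log2 fold change was 0.19 for Dbp and 0.13 for Arntl, and 0 genes were called. Same-numbered libraries did not deviate together (correlations -0.069, -0.044 and -0.045). The labels do not say what they share beside a number, and these correlations cannot decide it with 3 libraries per group. The relation of Arntl with Nr1d1 turned to -0.965 without the 2 farthest libraries (exact permutation p 0.0417). That p is unadjusted, and the libraries were left out by their Arntl values, so no relation is read from it. With the length trend removed, r was 0.681 for Arntl and Nr1d1, 0.620 for Arntl and Dbp, and 0.587 for Dbp and Per3 (exact permutation p 0.133, 0.193 and 0.219). Of the other clock genes, Fbxl21 and Ciart, both under 5 CPM, had intervals that reach past 1.5-fold (-0.15 to 0.76 and -0.27 to 0.64), so changes of that size are not excluded for them at this depth.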
